A study of Rattus norvegicus with 8 samples.

Results

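The core protein genes of the spliceosome were followed in the wall of rat arteriovenous fistulas (AVFs) treated with β-aminopropionitrile (BAPN), an inhibitor of the collagen crosslinking enzyme lysyl oxidase. Members were all genes whose name begins with Snrpa to Snrpg, with Lsm, Sf3a, Sf3b or Prpf and a number, or with U2af. This gave 51 of the 32623 genes in the count tables, of which 49 had enough reads to be tested. The group was chosen after Snrpg stood out in this same comparison, and the contrast of Snrp and Lsm genes with Prpf, Sf3 and U2af genes was chosen with earlier results known. These classes go by name alone, since protein size was not measured here. Snrpg is therefore described without a test, the other 48 tested members are counted without it, and these counts are descriptions from which nothing is read about the group.

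Bulk RNA was sequenced from the outflow (epigastric) vein of Sprague Dawley rats in which that vein had been joined to the femoral artery. Every rat carried a bilayer PLA and PLGA nanofiber scaffold around the vein for 21 days, loaded with BAPN in 4 rats (3 females, 1 male) and with vehicle in 4 rats (2 females, 2 males). The libraries are called BAPN 1 to 4 and Vehicle 1 to 4, and the male rats were BAPN 4, Vehicle 3 and Vehicle 4. No vein without a fistula or without a scaffold was analysed here, and neither the labels nor the methods speak of pooled rats.

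The spliceosome removes introns from precursor messenger RNA and is built from small nuclear ribonucleoproteins (snRNPs), each a short RNA with its proteins. Sm proteins form a ring on most of these RNAs after the SMN complex has loaded them in the cytoplasm, the related LSm proteins form a ring on U6 RNA or, with Lsm1, on messenger RNA that is to be decayed, and SF3a, SF3b and U2AF place U2 at the branch site. Proteins of the Prpf family join and remodel the U4, U5 and U6 particles that form the active enzyme, and splicing of this kind takes place in every cell type of the vessel wall.

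Total counts were 45039451 to 52241007 per BAPN library and 19548203 to 22442050 per Vehicle library, so the smallest BAPN library was 2.01 times the largest Vehicle library and depth cannot be told apart from treatment. Values are given in CPM, counts divided by library size on the usual scale, which compares a gene between libraries but not with another gene, since gene lengths were not used. Smooth muscle, fibroblast and macrophage markers were detected in every library. Of 4 fibroblast markers edgeR called none, while DESeq2 called Pdgfra lower (FDR 0.0253). Of 2 tested skeletal muscle markers edgeR called none and DESeq2 called Acta1 lower (FDR 0.0441). The 4 listed skeletal muscle markers summed to 15.9 to 29.8 CPM with BAPN against 17.1 to 68.5 CPM with vehicle. No keratinocyte marker had enough reads to be tested, and the 3 listed summed to 1.66 to 10.9 against 0.544 to 4.63 CPM. The summed level of 3 endothelial markers (Cdh5, Vwf and Tek, with Pecam1 not analysed here) was 162 to 303 CPM with BAPN against 406 to 1103 CPM with vehicle, without overlap, and 2 of the 3 were called lower (3 by DESeq2). Of 5 smooth muscle markers, 3 were called lower, with sums of 1404 to 3926 against 2873 to 5508 CPM. Of 4 T cell markers, 1 (Cd2) was called higher (summed level 21.2 to 66.4 against 11.7 to 25.8 CPM), and so was 1 of 2 tested B and plasma cell markers (sum of the 4 listed 6.18 to 173 against 11.0 to 35.0 CPM), while DESeq2 called 2 of the 4 and both of the 2 higher. Of 2 tested adipocyte markers, Plin1 was called lower (log2 fold change −2.13, FDR 0.0443) and Adipoq was at −1.61 (FDR 0.0647), with sums of the 3 listed markers of 18.5 to 39.1 against 17.3 to 171 CPM, and DESeq2 called both lower. The 4 markers of dividing cells summed to 120 to 195 CPM with BAPN against 112 to 161 CPM with vehicle, and edgeR called none of them, DESeq2 called none either, and 2 were higher at an unadjusted p under 0.05. The part of these cell types in the values below was not tested, and in whole tissue fewer cells of a type cannot be told apart from less RNA per cell.

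Core spliceosome genes that changed were all higher with BAPN, and Snrp and Lsm genes supplied most of them. A gene was called when its false discovery rate (FDR, from edgeR's quasi-likelihood test adjusted by Benjamini-Hochberg over all 11682 tested genes) was below 0.05. Without Snrpg, 13 of 48 members were called higher, where 7.5% of all tested genes were called higher. No member was called lower, where 9.25% of all tested genes were; DESeq2 called 13 higher and none lower, where it called 12.3% of all tested genes higher and 27.4% in either direction, and at an unadjusted p under 0.05 there were 21 higher and 1 lower, where 17.4% of all tested genes were higher and 18.4% lower by that measure. Among the Snrp and Lsm genes 10 of 23 were called higher and the median log2 fold change was 0.44 (range −0.24 to 0.90). Among the Prpf, Sf3 and U2af genes 3 of 25 were called higher and the median was 0.14 (−0.41 to 0.51). The median over all tested genes was 0.02. In 20 of the 48 genes every BAPN library was above every Vehicle library, 14 of them Snrp or Lsm genes and 6 of the other class, whereas 12.7% of all tested genes separated in that direction. No member separated in the other direction, where 11.9% of all tested genes did. Fewer members were called whenever 1 library was left out, and fewer of all tested genes were too, except without Vehicle 2. Without Vehicle 1 there were 3 member calls, where 1.28% of all tested genes were then called higher, and without BAPN 3 there were 4, where 2.59% were. There were 5 without Vehicle 4 (3.57% of all tested genes called higher), 6 without BAPN 4 (3.36%), 8 without BAPN 1 (5%), 8 without Vehicle 3 (4.42%), 9 without BAPN 2 (4.05%) and 9 without Vehicle 2 (7.94%).

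**Figure D1:**
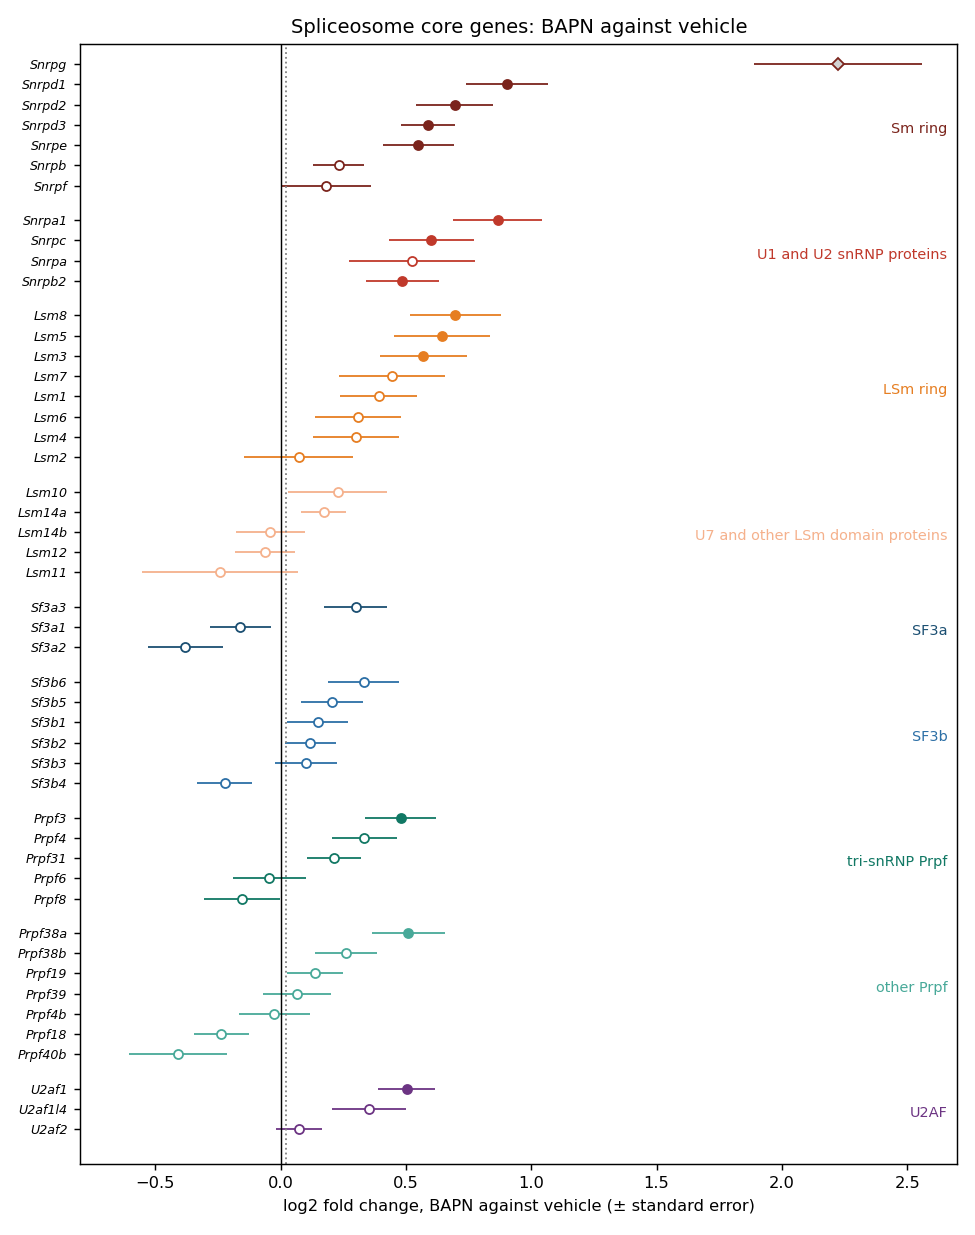
Log2 fold change (BAPN against vehicle, x axis) of the tested core spliceosome genes, grouped by role, with bars of 1 standard error. Filled circles are genes with an FDR below 0.05, open circles are not called, the grey diamond is Snrpg (no test), and the dotted line is the median of all tested genes at 0.02; filled circles all lie to the right, from 0.48 for Prpf3 to 0.90 for Snrpd1.

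Genes of the Sm ring, the heptamer that encloses the snRNA of U1, U2, U4 and U5, had a median log2 fold change of 0.59 with Snrpg included, and 4 of the 6 others rose, where 7.5% of all tested genes were called higher. Snrpd1, which pairs with Snrpd2 in the ring, had 25.9, 24.7, 34.4 and 26.7 CPM in BAPN 1 to 4 and 15.2, 14.8, 12.9 and 16.9 CPM in Vehicle 1 to 4. All BAPN libraries lay above all Vehicle libraries, with means of 27.9 ± 4.38 and 14.9 ± 1.62 CPM (SD, n = 4 each), and Snrpd1 rose by a log2 fold change of 0.90 (SE 0.16, FDR 0.00986). For its partner Snrpd2 the levels were 52.2, 50.2, 65.0 and 57.0 CPM with BAPN against 33.0, 28.9, 45.1 and 31.8 CPM with vehicle. The groups did not overlap although Vehicle 3 came near the BAPN libraries, and Snrpd2 rose by 0.69 on the log2 scale (SE 0.15, FDR 0.0225). Snrpd3, which pairs with Snrpb, had 47.8, 45.0, 49.5 and 50.4 CPM against 30.5, 34.5, 28.3 and 35.1 CPM. Its groups were far apart, and it rose by 0.59 (SE 0.11, FDR 0.0137). Snrpe, which joins Snrpf and Snrpg in a trimer before ring assembly, had 54.0, 52.5, 70.6 and 56.2 CPM against 34.3, 39.8, 47.9 and 37.4 CPM. BAPN 3 was again the highest library and Vehicle 3 the nearest control, and Snrpe rose by 0.55 (SE 0.14, FDR 0.0315).

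The remaining ring genes did not pass the test. Snrpb, whose protein carries a long tail beyond the Sm fold, had 77.7, 77.0, 90.5 and 82.2 CPM with BAPN against 71.6, 72.1, 73.5 and 61.8 CPM with vehicle. These groups did not overlap, but the log2 fold change was 0.23 (SE 0.10) and the FDR 0.129. Snrpf, the trimer partner of Snrpe, had 38.1, 31.5, 49.5 and 38.3 CPM against 28.4, 36.2, 43.4 and 30.5 CPM. The groups of Snrpf overlapped, with Vehicle 3 above 3 of the 4 BAPN libraries, and its log2 fold change was 0.18 (SE 0.18, FDR 0.478). Snrpd1 and Snrpd3 were called in each of 8 fits that left out 1 library, with largest FDRs of 0.0357 and 0.0494, both without Vehicle 1. Snrpd2 and Snrpe lost their calls without BAPN 3, BAPN 4, Vehicle 1 or Vehicle 4, with FDRs of 0.0501 to 0.0661 for Snrpd2 and 0.0637 to 0.0879 for Snrpe. With sex as a covariate the FDR was 0.0277 for Snrpd1, 0.0369 for Snrpd2, 0.0334 for Snrpd3 and 0.0573 for Snrpe, and Snrpe also lost its call with scaling by total counts alone (FDR 0.0585).

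**Figure D2:**
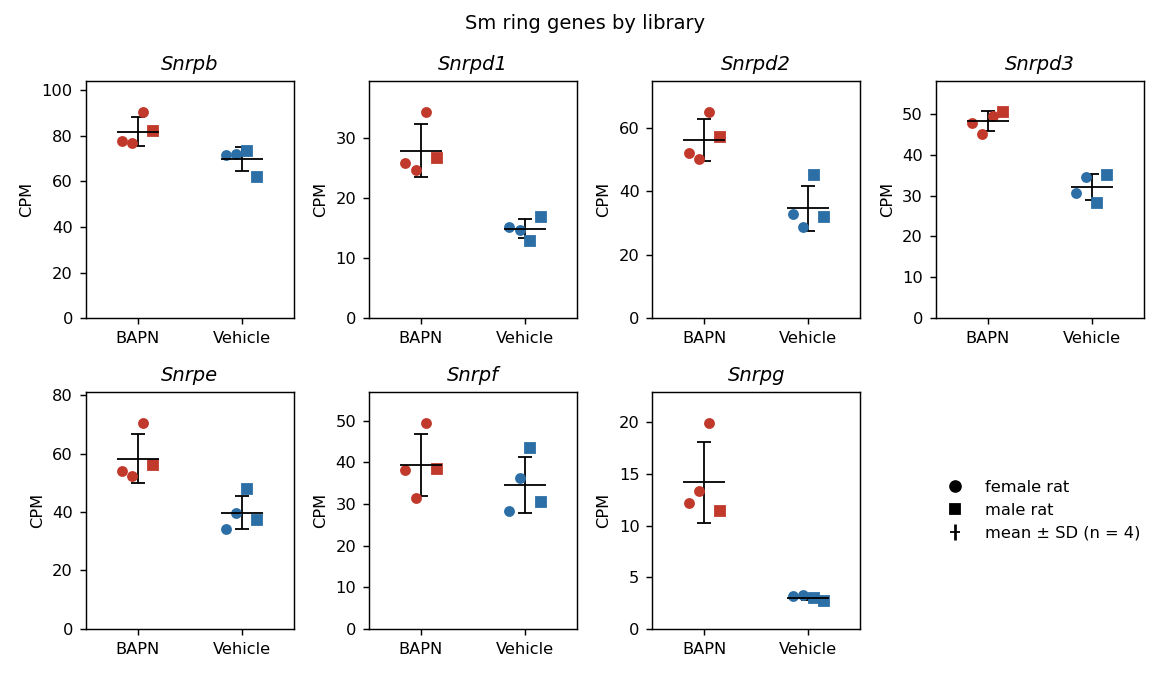
Level in CPM (y axis, from 0, own scale for each gene) of the 7 Sm ring genes in each library, BAPN in red and vehicle in blue, circles for female and squares for male rats, with mean ± SD (n = 4). Libraries of the groups overlap in Snrpf alone, and the third BAPN library is the highest in 6 of the panels, all but Snrpd3.

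Snrpg, the seventh ring protein and the gene that led to the choice of this group, had 12.2, 13.3, 20.0 and 11.4 CPM in BAPN 1 to 4 and 3.23, 3.26, 2.95 and 2.72 CPM in Vehicle 1 to 4. These rest on 545 to 866 reads per BAPN library and 57 to 70 reads per Vehicle library. The means were 14.2 ± 3.93 and 3.04 ± 0.255 CPM, a ratio of 4.67 and a log2 fold change of 2.22 (SE 0.33), the largest among the members. Over all alternatives fitted on Snrpg alone the log2 fold change stayed between 2.01 (without BAPN 3) and 2.31. With every library thinned to the smallest total it was 2.20. The next member in size was Snrpd1 at 0.90.

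A second gene has an Snrpg-like name in RefSeq, though not in the count tables, so the name rule did not match it. LOC687679 (ENSRNOG00000016507) is listed by RefSeq as Snrpgl1, a protein-coding gene, and RefSeq lists 9 such genes named after Snrpg, 8 of them pseudogenes. How reads that fit both genes were counted is not given in the sources used here, and the likeness of their sequences was not measured, so the split of reads between them is uncertain. LOC687679 had 28.8, 30.4, 40.7 and 27.9 CPM with BAPN against 16.0, 23.7, 21.7 and 16.4 CPM with vehicle. The groups did not overlap and it rose by 0.72 on the log2 scale (SE 0.19, FDR 0.0296), a call that was lost without BAPN 2, BAPN 3, BAPN 4, Vehicle 1 or Vehicle 4 (FDR 0.0506 to 0.0818), with sex as a covariate (FDR 0.0654) and with scaling by total counts alone (FDR 0.0528). The reads of Snrpg and LOC687679 together came to 46.2 ± 9.82 CPM with BAPN against 22.5 ± 3.97 CPM with vehicle, and their summed log2 fold change was 1.04, against 2.22 for Snrpg alone. Snrpg made up 29.7, 30.5, 32.9 and 28.9% of those reads in the BAPN libraries and 16.8, 12.1, 11.9 and 14.3% in the Vehicle libraries. The 95% Wilson interval, for counting error only, was 26.9 to 31.0% for the lowest BAPN share and 13.5 to 20.8% for the highest Vehicle share. Snrpg was chosen for its difference, so these shares are a description.

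**Figure D3:**
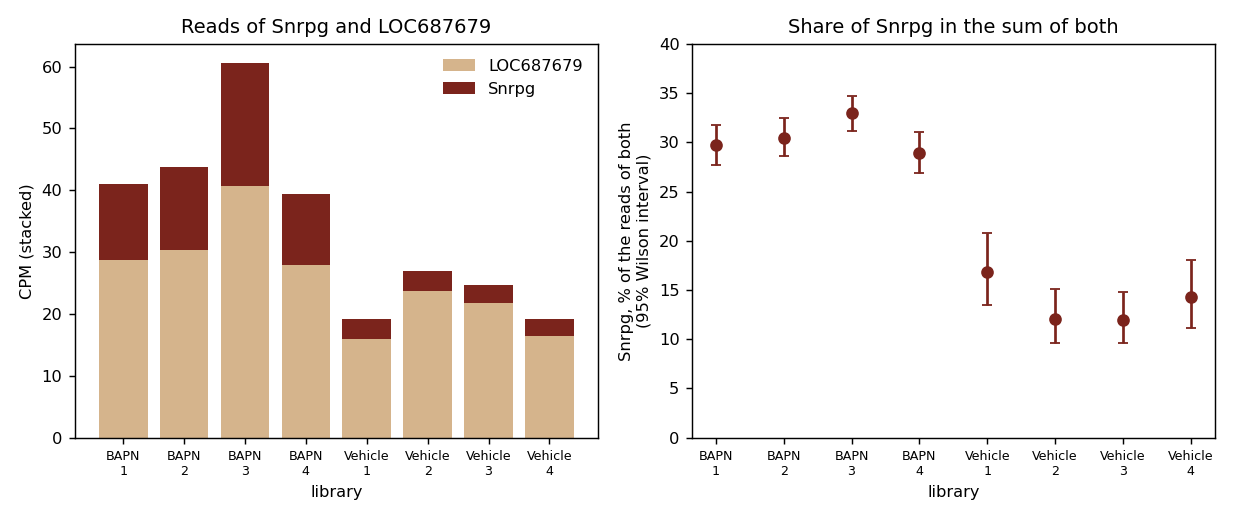
Left, CPM of LOC687679 (tan) and Snrpg (dark red) stacked for each library, and right, Snrpg as a percent of the reads of both with 95% Wilson intervals. Both parts of the bar are taller in the BAPN libraries, and the Snrpg share is 28.9 to 32.9% there and 11.9 to 16.8% in the Vehicle libraries.

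The 250 bases before the RefSeq transcription start are printed for Snrpg, for Snrpgl1 as the gene whose reads may be split with it, for Snrpd3 as a ring gene called in every fit without 1 library and for Prpf8 as a member of the other class that was not called. Capitals mark matches, on either strand, to the letters of the ETS core, which are CCGGAAG, of the GC box, which are GGGCGG, of the TATA box, which are TATAAA, or of the NRF1 core, which are GCATGCGC. Matches to the CCAAT box are marked too, and read ATTGG on the opposite strand. None of these motifs contains another. In build GRCr8 the windows are chr4:120369461-120369710 on the plus strand for Snrpg, chr1:97119970-97120219 on the minus strand for Snrpgl1, chr20:13144921-13145170 on the minus strand for Snrpd3 and chr10:60829528-60829777 on the plus strand for Prpf8.
Snrpg: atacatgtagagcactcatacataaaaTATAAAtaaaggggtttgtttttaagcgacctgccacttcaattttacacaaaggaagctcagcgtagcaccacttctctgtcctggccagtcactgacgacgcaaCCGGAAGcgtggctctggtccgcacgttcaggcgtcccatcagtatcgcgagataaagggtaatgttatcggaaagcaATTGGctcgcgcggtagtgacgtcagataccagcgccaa
Snrpgl1: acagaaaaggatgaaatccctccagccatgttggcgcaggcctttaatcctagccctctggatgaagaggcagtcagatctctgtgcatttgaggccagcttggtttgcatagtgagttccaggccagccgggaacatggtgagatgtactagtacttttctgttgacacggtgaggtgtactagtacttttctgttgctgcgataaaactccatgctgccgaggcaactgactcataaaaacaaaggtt
Snrpd3: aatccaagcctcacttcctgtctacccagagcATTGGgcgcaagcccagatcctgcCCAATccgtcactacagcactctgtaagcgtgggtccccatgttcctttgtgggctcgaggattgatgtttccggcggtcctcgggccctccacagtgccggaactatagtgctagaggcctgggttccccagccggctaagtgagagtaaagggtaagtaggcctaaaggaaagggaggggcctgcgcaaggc
Prpf8: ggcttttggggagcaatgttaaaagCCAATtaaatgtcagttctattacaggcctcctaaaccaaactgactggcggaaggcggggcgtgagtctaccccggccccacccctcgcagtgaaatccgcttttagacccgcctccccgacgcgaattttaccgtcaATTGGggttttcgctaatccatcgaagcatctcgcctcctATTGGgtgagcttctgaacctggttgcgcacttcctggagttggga
The Snrpg window held TATAAA 223, CCGGAAG 117 and ATTGG 39 bases before the start, and the Snrpgl1 window held none of the 5 motifs. Snrpd3 had ATTGG 218 and CCAAT 194 bases before its start, and Prpf8 had CCAAT 225 and ATTGG 86 and 46 bases before its own. RefSeq windows were found for 44 of the 49 tested members, 22 in each class. CCGGAAG occurred in 6 of 22 Snrp and Lsm windows and in 6 of 22 Prpf, Sf3 and U2af windows, and in 7.78% of all 27455 windows. Those windows were 1 per RefSeq gene symbol and were not limited to genes tested here, so they are not a matched background. GGGCGG occurred in 10 of 22 windows of each class and in 32.3% of all. CCAAT was present in 7 and 8 windows (34.2% of all), GCATGCGC in 4 and 2 (2.38%) and TATAAA in 1 and 0 (13.1%). CCGGAAG and GGGCGG were thus equally frequent in both classes, and a match of letters is a description and not a binding site.

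The 4 members Snrpa, Snrpc, Snrpa1 and Snrpb2, proteins of U1 or U2 outside the Sm ring, had positive log2 fold changes, and 3 of them rose, where 7.5% of all tested genes were called higher. Snrpa1, a U2 protein that binds together with Snrpb2, had 23.2, 27.1, 26.9 and 19.1 CPM with BAPN against 11.0, 13.8, 13.9 and 14.0 CPM with vehicle. The groups were separate, with means of 24.1 ± 3.78 and 13.2 ± 1.47 CPM, and Snrpa1 rose by 0.87 (SE 0.18, FDR 0.0132). It was called in all 8 fits without 1 library (largest FDR 0.0423, without Vehicle 1) and with sex as a covariate (FDR 0.0360). Snrpb2 had 35.0, 32.7, 47.0 and 36.2 CPM against 29.2, 27.3, 24.6 and 26.6 CPM, without overlap, and rose by 0.49 (SE 0.14, FDR 0.0403). Snrpc, which helps U1 to settle on the start of an intron, rose by 0.60 (SE 0.17, FDR 0.0409), also without overlap. The calls of both were fragile. Snrpb2 was called in 1 of the 8 fits, that without BAPN 2, and Snrpc in 1, that without Vehicle 2, and in the other fits the FDRs ran from 0.0563 to 0.0843 and from 0.0513 to 0.105. With sex as a covariate both calls were lost (FDR 0.0814 and 0.0703), and so was that of Snrpb2 with scaling by total counts alone (FDR 0.0620). Snrpa, the U1 protein that binds a stem loop of the RNA, had a log2 fold change of 0.53 (SE 0.25, FDR 0.107) and groups that overlapped, since BAPN 4 at 13.1 CPM was below Vehicle 1, 2 and 4.

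Genes of the LSm rings had positive log2 fold changes in all 8 cases (median 0.42), where 51.6% of all tested genes were positive, and 3 of them rose, where 7.5% of all tested genes did. Lsm8, the subunit that is found in the nuclear ring on U6 and not in the cytoplasmic one, had 31.1, 38.8, 51.6 and 33.3 CPM with BAPN against 22.6, 24.0, 25.3 and 23.5 CPM with vehicle. The Vehicle libraries lay close together and below all BAPN libraries, and Lsm8 rose by 0.70 (SE 0.18, FDR 0.0246). Its call was lost without Vehicle 1 or Vehicle 4 (FDR 0.0703 and 0.0515) and with sex as a covariate (FDR 0.0562). Lsm5 and Lsm3, subunits of both rings, rose by 0.65 (SE 0.19, FDR 0.0337) and 0.57 (SE 0.17, FDR 0.0408). Each of these calls was kept in 1 of the 8 fits, that without BAPN 1 for Lsm5 and that without BAPN 2 for Lsm3, and the FDRs elsewhere were 0.0538 to 0.0897 and 0.0501 to 0.106. With sex as a covariate the FDR was 0.0624 for Lsm5 and 0.0317 for Lsm3. Lsm1, which replaces Lsm8 in the cytoplasmic ring, had a log2 fold change of 0.39 (SE 0.15, FDR 0.100), and its groups did not overlap. Lsm2 had the lowest log2 fold change of the 8 LSm ring genes, with 17.0, 15.8, 23.1 and 14.5 CPM against 14.3, 18.2, 22.0 and 12.4 CPM. Its groups overlapped throughout, and the log2 fold change was 0.07 (SE 0.22, FDR 0.833), turning to −0.09 without BAPN 3 and to −0.05 without Vehicle 4.

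The 5 LSm domain proteins that belong to neither ring had a median log2 fold change of −0.04, and none was called by edgeR or by DESeq2 or had an unadjusted p under 0.05. Lsm10, which with Lsm11 replaces Snrpd1 and Snrpd2 in the ring on U7 RNA for histone messenger RNA processing, had 9.15, 9.82, 14.2 and 11.9 CPM against 9.78, 10.3, 9.26 and 9.08 CPM. Lsm11 had 4.40, 3.91, 3.53 and 2.48 CPM against 3.42, 2.72, 5.09 and 5.68 CPM. Both genes overlapped between groups, with log2 fold changes of 0.23 (SE 0.20, FDR 0.376) and −0.24 (SE 0.31, FDR 0.597), and the sign of Lsm11 turned in females alone (0.36). Lsm14a, a protein of cytoplasmic messenger RNA granules, was the only one of the 5 whose groups did not overlap (log2 fold change 0.17, FDR 0.189). Over all tested genes edgeR called 16.8% and DESeq2 27.4%, and 12.7% separated with BAPN higher. At that unadjusted p 17.4% of all tested genes were higher and 18.4% lower.

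No subunit of SF3a or SF3b, the complexes that hold U2 at the branch site, was called by edgeR or DESeq2. At an unadjusted p under 0.05 there were 1 higher and 1 lower gene in SF3a and 1 higher in SF3b. Over all tested genes edgeR called 16.8% and DESeq2 27.4%, and 17.4% were higher and 18.4% lower at that unadjusted p. Sf3a3 had 39.8, 38.0, 36.8 and 42.8 CPM with BAPN against 31.0, 25.7, 35.6 and 35.6 CPM with vehicle, which did not overlap (log2 fold change 0.30, SE 0.13, FDR 0.129). Sf3a2 had 37.2, 34.7, 38.6 and 31.7 CPM against 38.3, 60.2, 47.1 and 39.5 CPM, with BAPN 3 just above Vehicle 1 (log2 fold change −0.38, SE 0.15, FDR 0.116). The SF3a subunits thus had values of both signs. In SF3b, Sf3b6, which touches the branch site adenosine, had 26.0, 27.0, 32.0 and 26.9 CPM against 25.5, 19.1, 25.1 and 19.3 CPM (log2 fold change 0.33, SE 0.14, FDR 0.127). Sf3b4 had 58.0, 61.9, 55.1 and 48.4 CPM against 62.8, 61.8, 72.7 and 63.5 CPM (−0.22, SE 0.11, FDR 0.169). Sf3b6 did not overlap between groups and Sf3b4 did, BAPN 2 lying just above Vehicle 2. Sf3b1, the large subunit that clamps the branch site duplex, had 317 ± 23.6 and 286 ± 30.7 CPM (0.15, SE 0.12, FDR 0.417).

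Of the Prpf proteins of the U4, U5 and U6 tri-snRNP, 1 of 5 rose, where 7.5% of all tested genes were called higher. Prpf3, which binds the U4 and U6 duplex with Prpf4, had 34.9, 41.0, 32.0 and 33.4 CPM with BAPN against 28.5, 24.3, 20.6 and 27.9 CPM with vehicle. The groups did not overlap and Prpf3 rose by 0.48 (SE 0.14, FDR 0.0436), but the call was lost whichever library was left out (FDR 0.0606 to 0.104). It was also lost with sex as a covariate (FDR 0.0883), total-count scaling (0.0689), no filter on low counts (0.0551) and thinning (0.0676). Prpf4 had a log2 fold change of 0.33 (SE 0.13, FDR 0.103). Prpf8, the scaffold of the catalytic centre, had 296, 265, 191 and 261 CPM against 304, 263, 256 and 304 CPM, with BAPN 3 the lowest library and the other values overlapping (−0.15, SE 0.15, FDR 0.492). BAPN 3, the highest library in most Sm and Lsm genes, was thus the lowest for Prpf8. RNA integrity by library and transcript length were not used here, and their part in such differences was not tested.

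Among 8 other Prpf genes, 1 rose, a share near the 7.5% called higher over all tested genes. Prpf38a, needed for activation of the assembled spliceosome, had 32.0, 33.9, 35.7 and 28.8 CPM with BAPN against 19.7, 24.8, 19.4 and 27.8 CPM with vehicle, without overlap. It rose by 0.51 (SE 0.15, FDR 0.0431), and the call remained in the fits without Vehicle 2 and without Vehicle 4 and was lost in the other 6 (FDR 0.0644 to 0.113). It was also lost with sex as a covariate (FDR 0.0892), total-count scaling (0.0614) and no filter on low counts (0.0528). Prpf40b, related to a yeast U1 protein, had 17.9, 14.0, 21.0 and 13.7 CPM against 24.0, 18.6, 27.3 and 18.4 CPM. BAPN 3 lay above Vehicle 2 and 4, and the log2 fold change was −0.41 (SE 0.19, FDR 0.161). Prpf19, the ubiquitin ligase of the Prp19 complex, had 102 ± 8.18 and 93.0 ± 9.16 CPM (0.14, SE 0.11, FDR 0.389).

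The U2AF dimer recognises the end of the intron, the small subunit reading its last bases and the large subunit the pyrimidine tract before them. U2af1, the small subunit, had 58.8, 56.4, 62.8 and 53.8 CPM with BAPN against 39.8, 35.3, 41.0 and 47.3 CPM with vehicle. The groups were separate, and U2af1 rose by 0.50 (SE 0.11, FDR 0.0227), a call that was lost without BAPN 3 (FDR 0.0582) and without Vehicle 1 (FDR 0.0661) and kept with sex as a covariate (FDR 0.0445). U2af2, the large subunit, had 110, 108, 96.5 and 105 CPM against 99.4, 98.7, 94.4 and 106 CPM, with overlap (0.07, SE 0.09, FDR 0.585). U2af1l4, a paralog of U2af1, had a log2 fold change of 0.35 (SE 0.15, FDR 0.105).

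Each library was also described by the median over a class of the log2 CPM less each gene's mean over 8 libraries. For the 23 Snrp and Lsm genes without Snrpg this was 0.10, 0.07, 0.46 and 0.13 for the BAPN libraries in the order of their numbers, against −0.35, −0.21, −0.09 and −0.24 for the Vehicle libraries. BAPN 3 stood well above the other BAPN libraries, and Vehicle 1 was the lowest. For the 25 Prpf, Sf3 and U2af genes the medians were 0.06, 0.12, 0.04 and 0.04 against −0.06, −0.05, −0.02 and −0.03. The Prpf, Sf3 and U2af genes spanned a narrower range. Neither class overlapped between groups, but neither did the median over all tested genes, at 0.0065 to 0.0194 with BAPN against −0.0078 to 0.0023 with vehicle. BAPN 3 held the highest value of all 8 libraries in 17 of 24 Snrp and Lsm genes, Snrpg included, and in 6 of 25 of the other class. Without BAPN 3 the median log2 fold change was 0.36 for the Snrp and Lsm genes. In females alone (3 BAPN, 2 Vehicle) it was 0.51 with 21 of 23 genes positive, and 0.13 for the Prpf, Sf3 and U2af genes with 18 of 25 positive, where 51.2% of all tested genes were positive. edgeR called no member in females alone, where 0.3% of all tested genes were called higher, and 12 Snrp and Lsm genes and 6 Prpf, Sf3 and U2af genes were higher at an unadjusted p under 0.05, where 11.8% of all tested genes were.

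**Figure D4:**
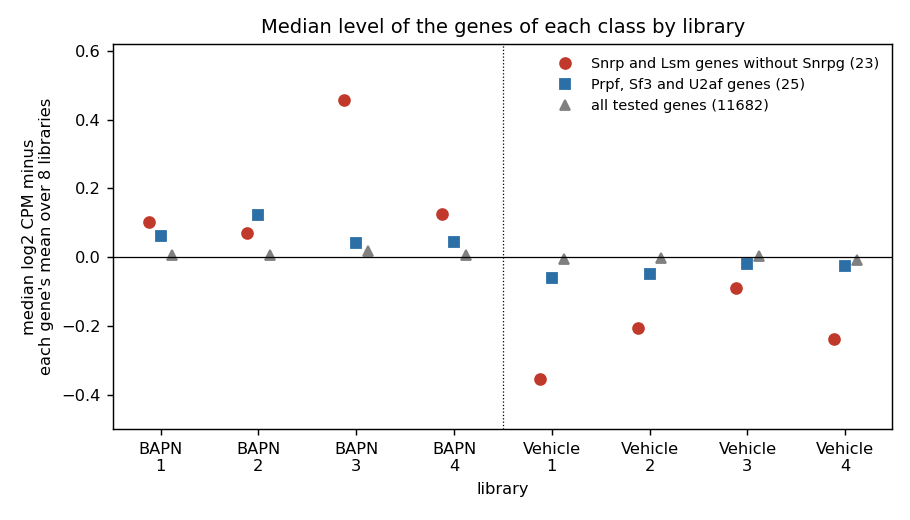
Median, per library, of log2 CPM less each gene's mean over the 8 libraries (y axis) for 23 Snrp and Lsm genes (red circles), 25 Prpf, Sf3 and U2af genes (blue squares) and all 11682 tested genes (grey triangles). The red circles lie between 0.07 and 0.46 in the BAPN libraries and between −0.35 and −0.09 in the Vehicle libraries.

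Other genes of the pathway were followed by lists of factors that load the Sm ring, of further snRNP and Prp19 complex proteins and of SR proteins. In the SMN complex and the methylosome, which assemble and methylate Sm proteins, 2 of 10 tested genes rose, where 7.5% of all tested genes were called higher, and the median log2 fold change was 0.29. None was called lower by edgeR or DESeq2 or was lower at an unadjusted p under 0.05. Of all 11682 tested genes edgeR called 9.25% lower, DESeq2 called 1764 lower, and 18.4% were lower at that unadjusted p. Strap, a subunit of the SMN complex, had 66.1, 76.1, 94.2 and 73.6 CPM with BAPN against 45.0, 49.0, 53.7 and 48.1 CPM with vehicle. Its groups were well separated and it rose by 0.66 (SE 0.13, FDR 0.0148), with the call lost without Vehicle 1 (FDR 0.0516). Smn1 rose by 0.41 (SE 0.11, FDR 0.0352), but was called in 1 of the 8 fits without a library, that without Vehicle 2, and had FDRs of 0.0576 to 0.0837 in the others and of 0.0661 with sex as a covariate. Gemin5, which recognises the snRNA, had 20.7, 22.0, 16.7 and 15.0 CPM against 22.5, 13.1, 18.7 and 20.4 CPM, with full overlap (−0.01, SE 0.20, FDR 0.985).

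Of 24 tested rows for other snRNP and Prp19 complex proteins, 3 rose, where 7.5% of all tested genes were called higher, and the median was 0.18. None was called lower by edgeR or DESeq2. Of all 11682 tested genes edgeR called 9.25% lower and DESeq2 called 1764 lower. DESeq2 called 5 higher, where it called 12.3% of all tested genes higher. At an unadjusted p under 0.05 there were 5 higher and none lower, where 17.4% of all tested genes were higher and 18.4% lower. Txnl4a, a small U5 protein, had 9.69, 9.53, 13.4 and 10.5 CPM with BAPN against 5.81, 5.78, 6.06 and 4.92 CPM with vehicle. Its groups were wide apart and it rose by 0.93 (SE 0.21, FDR 0.0161), with the call lost without Vehicle 1 (FDR 0.0505). Crnkl1 and Cdc5l, proteins of the Prp19 complex and its partners, rose by 0.72 (SE 0.12, FDR 0.00965) and 0.52 (SE 0.10, FDR 0.0133). Both were called in all 8 fits without a library. In females alone Strap, Smn1, Txnl4a, Crnkl1 and Cdc5l all lost their calls (FDR 0.0787 to 0.186). With replicate number as a term Txnl4a and Cdc5l lost theirs (FDR 0.0522 and 0.0528), while Crnkl1 was still called (FDR 0.0425). Snrnp70, a U1 protein, had 137, 146, 165 and 133 CPM against 161, 152, 200 and 145 CPM, with overlap (−0.18, SE 0.13, FDR 0.347).

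All 10 SR proteins, which bind exons and guide splice site choice, had positive log2 fold changes, with a median of 0.16 and a range of 0.07 to 0.34. No SR protein gene was called by edgeR or DESeq2, 1 was higher at an unadjusted p under 0.05, and all 10 overlapped between groups. Over all tested genes 51.6% were positive, edgeR called 16.8% and DESeq2 27.4%, 17.4% were higher at that unadjusted p, and 24.7% did not overlap. Srsf5 had 211, 229, 223 and 171 CPM against 163, 145, 197 and 151 CPM (0.34, SE 0.14, FDR 0.116), and BAPN 4 fell within the range of the Vehicle libraries. Srsf9 had 32.4, 31.0, 37.6 and 31.3 CPM against 29.7, 25.7, 35.8 and 34.6 CPM (0.07, SE 0.13, FDR 0.721). Neither gene separated the groups.

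Small ring genes often have copies elsewhere in the genome. RefSeq lists genes or pseudogenes named after 14 of the 23 Snrp and Lsm members, such as 10 for Snrpc, 6 for Snrpe and 4 for Snrpd2, and after 6 of the 25 Prpf, Sf3 and U2af members. The 14 Snrp and Lsm genes with a named copy had a median log2 fold change of 0.46 and the 9 without one 0.39. Among Prpf, Sf3 and U2af genes the medians were −0.01 for the 6 and 0.15 for the 19. Among members without a named copy, 3 of 9 Snrp and Lsm genes and 2 of 19 Prpf, Sf3 and U2af genes were called higher, where 7.5% of all tested genes were. Besides LOC687679, the tables held a row for an Snrpc pseudogene with 21 to 44 reads per library and one for an Lsm6-like gene with 0 to 20 reads. The 2 members that were not tested were a second row named Lsm5, with 1 to 7 reads per BAPN library and none in the Vehicle libraries, and Snrpd2l, with 2 to 8 reads in every library.

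**Figure D5:**
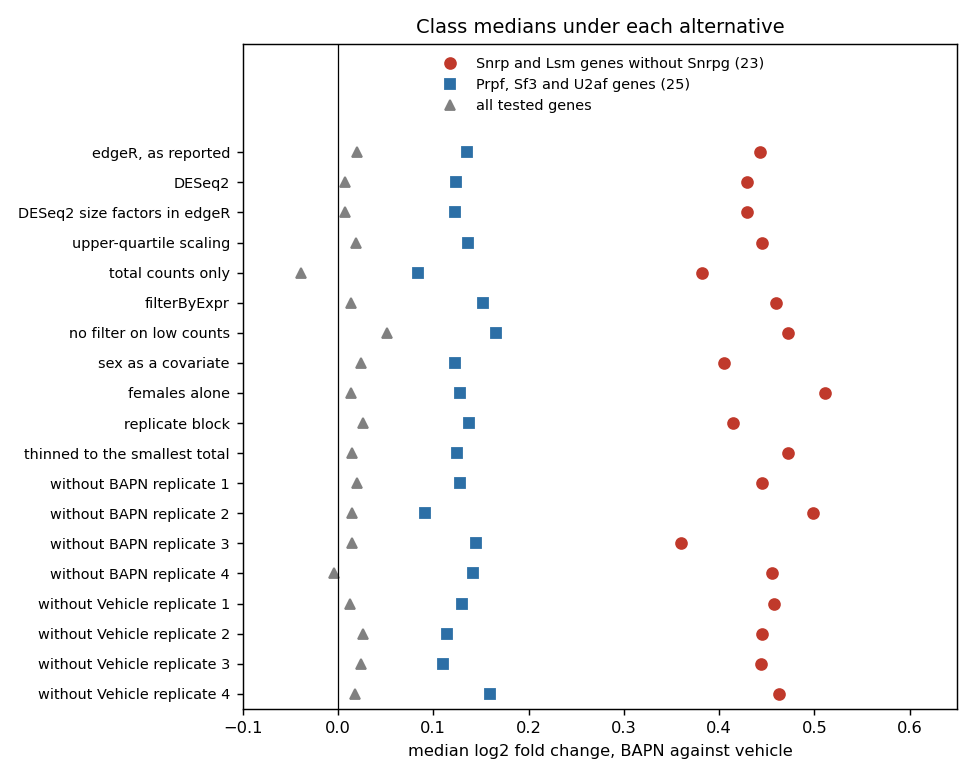
Median log2 fold change (x axis) of 23 Snrp and Lsm genes (red circles), 25 Prpf, Sf3 and U2af genes (blue squares) and all tested genes (grey triangles), under each processing alternative (rows). The red circles lie between 0.36 and 0.51 and the blue squares between 0.08 and 0.17, and the red circle lies to the right of the blue square in every row.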

How the data were processed

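Gene counts of 8 libraries, 1 per rat, were analysed. The deposited counts were made by the authors from ribosomal RNA depleted, stranded total RNA libraries and give whole reads per rat Ensembl gene without normalization. The submitters' processing notes name bcl2fastq 2.17, Trim Galore and STAR, while the counter, strand setting, treatment of reads that fit several genes, annotation release and genome build are not given in the sources used here. Groups, replicate numbers and sex came from the sample labels.

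A base mean (DESeq2 size factors) of 100 or more was required of a gene, following the study's methods. edgeR 4.0.16 in R 4.3.3 gave the quasi-likelihood test of 4 BAPN against 4 Vehicle libraries after TMM scaling, without covariates, with Benjamini-Hochberg adjustment over 11682 genes and a threshold of 0.05. Fold changes are edgeR's and standard errors come from limma-voom (limma 3.58.1) on the same genes. CPM used TMM-scaled library sizes and log2 CPM a prior count of 2. DESeq2 1.42.0, with independent filtering off, was an alternative, beside other scalings, filters, sex as a covariate, females alone, a replicate block, thinning to the smallest library and leaving out each library. No replicate pair agreed within sampling noise (chi-square per degree of freedom 68.6 to 321).

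Members, role classes and pathway lists were chosen with earlier results of these data known. Values in each library are given for the 7 Sm ring genes and for the genes of highest and lowest log2 fold change in each other role class and pathway list. All other genes, among them Lsm3, Lsm5, Snrpc, Snrpa, Smn1, Cdc5l, Crnkl1 and LOC687679, were named after their values were seen. Promoter windows and gene names came from RefSeq (GRCr8), used by symbol only. A grouping by protein length was not run because protein sequences were not used here. The values of 1 member are counted but not reported here.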

Additional observations from a re-analysis of the deposited data

Results flagged for a closer look

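Among 30 genes (those chosen by the naming rule and LOC687679), each examined in both groups of 4 (60 groups), 2 libraries lay far from the other 3 of their group by Dixon's ratio of the gap to the range, computed on log2 CPM, which chance alone gives in about 1 in 20 groups. Snrpb had 61.8 CPM in Vehicle 4 and 71.6 to 73.5 CPM in the other Vehicle libraries, a ratio of 0.849 on the log2 scale. Snrpa1 had 11.0 CPM in Vehicle 1 and 13.8 to 14.0 CPM in the other Vehicle libraries, a ratio of 0.939 on the log2 scale. Without Vehicle 1, Snrpa1 was still called higher with BAPN (edgeR FDR 0.0423).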

How the results depend on the processing

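The direction of both class medians was positive under every alternative run, and no member was called lower in any of them. Changing the test to DESeq2 raised the calls over all genes from 1957 to 3206 and left 13 member calls, 10 of them Snrp or Lsm genes. Scaling by total counts alone gave 7 member calls (6 Snrp or Lsm, 1 Prpf, Sf3 or U2af) and a median of 0.085 for the latter class. Calls over all genes were then 504 higher of 1665 in place of 876 of 1957. The share of all tested genes called higher was 4.31% in place of 7.5%. Without a filter on low counts 1 Prpf, Sf3 or U2af gene passed, where 3.51% of all tested genes were called higher. Adding sex as a covariate left 930 calls, 6 of them members (5 and 1), and 3.33% of all tested genes were called higher. In females alone 89 genes were called and 0 members (0 and 0), where 0.3% of all tested genes were called higher. Keeping members without a RefSeq copy, an alternative chosen after seeing the data, gave 5 calls, 3 of them Snrp or Lsm genes, and summing Snrpg with LOC687679, also added later, gave 1.04. Leaving out 1 library gave 397 (without Vehicle 1) to 2215 (without Vehicle 2) calls over all genes, 3 to 9 member calls, 3 to 8 among Snrp and Lsm genes, 0 to 2 among Prpf, Sf3 and U2af genes, and medians of 0.36 to 0.50 and 0.091 to 0.16. The cause of these shifts was not tested.

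A replicate block, with the replicate number as a term, gave 556 calls over all genes and 4 member calls, all Snrp or Lsm genes and 0 of the other class. Over all tested genes 1.71% were then called higher. Deviations of same-numbered libraries correlated by 0.09, −0.26, 0.27 and −0.14, so the libraries share only a number.

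Of 541 alternative values for 30 genes (those chosen by the naming rule and LOC687679), 453 kept direction and, where there was a test, side of the threshold (Snrpg had none), 74 lost the call and 13 turned sign, none of a called gene. Gemin5 (−0.01) turned to 0.011 with filterByExpr, 0.024 without a filter, 0.15 in females alone, 0.00015 with the block, 0.0076 after thinning and 0.042, 0.074, 0.095 and 0.038 without BAPN 3, BAPN 4, Vehicle 1 and Vehicle 4. Lsm11 turned to 0.36 in females alone, Lsm2 to −0.087 without BAPN 3 and −0.047 without Vehicle 4 (0.23 at most, without Vehicle 3), and Srsf9 to −0.013 without Vehicle 2 (0.14 at most, without Vehicle 3). A split of members by protein length was not run. Depth limits Snrpg, with 57 to 70 reads per Vehicle library.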
